A study of Homo sapiens with 4 samples.

Results

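The genes described here are 36 genes of mitosis and the kinetochore, taken by name, and all 36 were measured among the 19775 genes that the arrays name. A probe set, the group of short probes that reads 1 transcript on an Affymetrix array, stood for a gene where the platform annotation gave it exactly 1 symbol. Where a gene had several, the one with the highest mean over the 4 arrays was used. The cells were AGS, an established human gastric adenocarcinoma line with epithelial form, grown in medium with foetal calf serum and antibiotics. The untreated group (2 arrays) received fresh medium, and the LPS group (2 arrays) received medium with 10 µg/ml lipopolysaccharide of Helicobacter pylori, the glycolipid of the bacterium's outer membrane. RNA of both groups was taken after 8 h, and the design text speaks of 2 independent experiments without saying which arrays belong to each. All values are log2 expression as deposited, so that a difference of 1 is a doubling.

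Cells enter mitosis when cyclin B binds cyclin-dependent kinase 1 and the kinase is freed of its inhibitory phosphates. Kinetochores, the protein plates built on centromeric chromatin, then hold the chromosomes to spindle microtubules, and a checkpoint blocks anaphase until all are attached. Most genes of this programme are transcribed late in the cell cycle and are low in resting cells, which is why MKI67 and TOP2A serve as proliferation markers in gastric tumours. In a bulk RNA sample, fewer cells in late cell cycle stages and less RNA per cell cannot be told apart.

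The members' means over the 4 arrays ran from 7.54 to 13.22, and 36 of 36 lay above 7.25, the median over all genes. On single arrays, CENPQ lay below it on LPS replicate 2, at 7.08. The 8 epithelial marker genes examined, keratins and EPCAM among them, lay above that median as well. Below it were 7 of the 8 leukocyte markers measured, 5 of 7 fibroblast markers and 5 of 6 endothelial markers, and none of these 4 marker lists held a gene at an unadjusted p under 0.05. The technical controls differed between arrays. The 18S ribosomal RNA probe sets averaged 10.07 and 9.89 on the arrays numbered 1 (untreated, LPS) and 8.12 and 7.98 on those numbered 2. The hybridisation controls averaged 10.8 on LPS replicate 1 and 9.91 to 10.11 on the other arrays. The 3′ minus 5′ difference of the GAPDH control probe sets ran from 0.26 to 0.40 and did not split by number. That of the ACTB probe sets did, with 1.09 and 1.04 (untreated, LPS) for number 1 against 0.94 and 0.76 for number 2. Poly-A controls were likewise higher for number 1, at 8.67 (untreated) and 8.15 (LPS), than for number 2, at 7.62 and 7.535.

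After LPS the mitotic genes stood close to where they were without it, with CENPQ and CKS2 apart from the rest. The difference, LPS minus untreated, lay within 0.2 of 0 for 34 of the 36 genes (94.4%, against 89.7% of all genes), and for those 34 the ratio of LPS to untreated ran from 0.87 to 1.07. CENPQ, a subunit of the inner kinetochore, was lower on both treated arrays. CKS2, which binds cyclin-dependent kinases, was lower on 1 treated array and not on the other. None of the 36 passed the test across all genes (limma, adjusted p = 1 for each), and neither did any other gene (0% of 19775; limma, smallest adjusted p = 0.299).

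At an unadjusted p under 0.05 (limma), 1 member was lower and 0 were higher, where 1.57% of all genes were lower and 1.26% higher. In the whole table these were 310 and 249 genes. Both LPS arrays lay below both untreated arrays for 5 members (CCNA2, NEK2, CENPK, CENPQ and KIF11), where 11.7% of all genes did so. Both lay above for another 5 (BUB1B, UBE2C, CENPF, KIF2C and MKI67), where 17.9% of all genes did so. With 5 of 36 being 13.9%, the counts of members without overlap are near those shares. A 2-sided exact permutation test of 1 gene with 2 arrays against 2 cannot give a p under 0.333.

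CENPQ belongs to the constitutive centromere-associated network, where it sits with CENPO, CENPP and CENPU in the complex that helps bring polo-like kinase to the kinetochore. It was measured at 7.95 and 7.76 on the untreated arrays and at 7.39 and 7.08 on the LPS arrays. The groups did not overlap, and both same-numbered comparisons had the same direction, -0.57 for the arrays numbered 1 and -0.68 for those numbered 2. The group means were 7.85 ± 0.14 and 7.23 ± 0.22 (SD, n = 2), a difference of -0.62 ± 0.15 (SE). As a ratio, LPS to untreated was 0.65, and the 95% interval ran between 0.51 and 0.82. It had the smallest p of the members (limma, unadjusted p = 0.00328, adjusted p = 1). Over the 10 alternative settings the difference ran from -0.78 to -0.47, and the adjusted p from 0.266 to 1. CENPQ had 1 probe set. Its LPS mean of 7.23 lay just below the median over genes of 7.25, where signal may be background, and no further probe set bears on its value.

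Its partners differed by less, although the difference between the genes was not tested. CENPU, chosen here after its values were seen, differed by -0.11 ± 0.09 (SE) on its brightest probe set and by -0.10 and -0.35 on the others. CENPO, chosen in the same way, was at 8.78 and 8.92 without LPS and at 8.64 and 8.93 with it, a difference of -0.07 ± 0.13 (SE). CENPP was not analysed here. MMUT, which encodes the mitochondrial enzyme methylmalonyl-CoA mutase, lies head to head with CENPQ, with 116 bases between the annotated genes on opposite strands. It was also chosen after its values were seen, and it stood at 9.27 and 8.94 without LPS and at 9.22 and 8.85 with it. Its difference was -0.07 ± 0.16 (SE), and its groups overlapped.

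CKS2 and CKS1B are the human paralogues of the small Cks adaptors, which tether cyclin-dependent kinases to phosphorylated substrates. CKS2 was at 12.39 and 12.25 on the untreated arrays, at 11.03 on LPS replicate 1 and at 12.29 on LPS replicate 2. The low value thus came from 1 array, and LPS replicate 2 lay between the untreated arrays. The group means were 12.32 ± 0.09 and 11.66 ± 0.89 (SD, n = 2), a difference of -0.66 ± 0.34 (SE), with a ratio of 0.63 (95% interval 0.37 to 1.09; limma, unadjusted p = 0.0884, adjusted p = 1). Leaving out LPS replicate 1 gave a difference of -0.03, and leaving out LPS replicate 2 gave -1.28. In that last setting CKS2 was 1 of 16 genes past the adjusted threshold (limma, adjusted p = 0.000324), with the single treated array assumed to vary like the untreated ones. Over the 9 alternatives that measured CKS2 its adjusted p ran from 0.000324 to 1.

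CKS1B, by contrast, had the narrowest range of the 36 over the 4 arrays, at 13.21 and 13.25 without LPS and 13.18 and 13.23 with it. Its groups overlapped, and it differed by -0.02 ± 0.07 (SE). The dip of CKS2 was rare on these arrays. Of all 19775 genes, 4 were at least 1 log2 unit away from all 3 other arrays on a single array, and these 4 were CKS2, CLIC3, DAD1 and SLC39A7, each low on LPS replicate 1. DAD1, a subunit of the oligosaccharyltransferase, was at 12.19 and 12.16 without LPS, 11.09 on LPS replicate 1 and 12.29 on LPS replicate 2. SLC39A7, a zinc transporter, was at 8.34 and 8.30, then 7.26 and 8.49. CLIC3, of the chloride intracellular channel family, was at 9.47 and 9.48, then 8.04 and 9.50. These genes, other than CKS2, were named after their values were seen, and what lowered them on that array was not tested. That array also had the highest hybridisation controls, 10.8 against 9.91 to 10.11, whose part in the dip was not tested. All 4 genes had 1 probe set each.

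**Figure D1:**
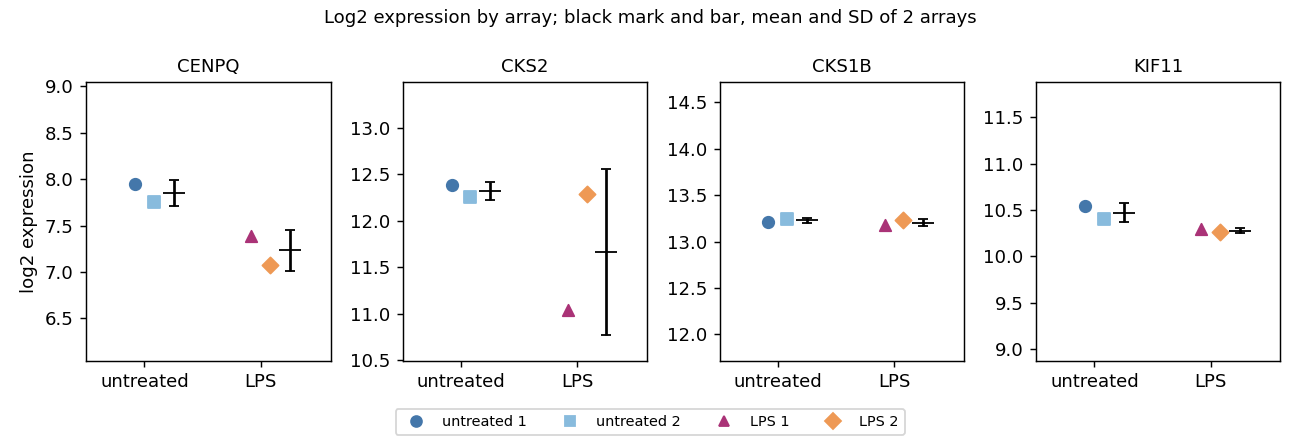
Log2 expression of CENPQ, CKS2, CKS1B and KIF11 on each of the 4 arrays, each panel spanning 3 log2 units; coloured symbols are single arrays, and the black mark and bar give the mean and SD of 2 arrays. CENPQ is lower on both LPS arrays, CKS2 on LPS 1 alone (11.03 against 12.25 to 12.39), CKS1B is level and KIF11 is slightly lower on both.

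Promoters of late cell cycle genes often hold CCAAT boxes, which bind the factor NF-Y, and a cell cycle genes homology region, TTTGAA, to which the MuvB core of the DREAM and MYBL2 complexes binds. The stretches upstream of the annotated start are shown for CENPQ and CKS2, the members farthest from 0, for the paralogue CKS1B, and for CCNB2, whose difference was 0.03. They are from RefSeq (GRCh38.p14), on the plus strand, written 5′ to 3′ and ending at the base before the start. Capitals mark TTTGAA and CCAAT, with TTCAAA and ATTGG being the same motifs on the other strand. They lie at chr6:49463254-49463369 (CENPQ, cut where MMUT begins), chr9:89310945-89311194 (CKS2), chr1:154974431-154974680 (CKS1B) and chr15:59104896-59105145 (CCNB2).
CENPQ: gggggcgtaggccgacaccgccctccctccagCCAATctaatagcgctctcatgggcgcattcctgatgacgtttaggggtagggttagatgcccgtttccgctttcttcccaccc
CKS2: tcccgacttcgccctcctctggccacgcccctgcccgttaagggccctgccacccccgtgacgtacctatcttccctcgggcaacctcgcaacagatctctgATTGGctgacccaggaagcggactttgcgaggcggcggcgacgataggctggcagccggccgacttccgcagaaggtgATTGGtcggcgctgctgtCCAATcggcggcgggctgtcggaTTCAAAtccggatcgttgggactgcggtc
CKS1B: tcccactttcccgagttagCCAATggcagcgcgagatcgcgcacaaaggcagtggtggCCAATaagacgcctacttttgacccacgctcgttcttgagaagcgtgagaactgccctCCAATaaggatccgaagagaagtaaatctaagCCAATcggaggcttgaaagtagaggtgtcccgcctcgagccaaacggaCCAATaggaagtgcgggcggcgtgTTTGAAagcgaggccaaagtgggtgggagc
CCNB2: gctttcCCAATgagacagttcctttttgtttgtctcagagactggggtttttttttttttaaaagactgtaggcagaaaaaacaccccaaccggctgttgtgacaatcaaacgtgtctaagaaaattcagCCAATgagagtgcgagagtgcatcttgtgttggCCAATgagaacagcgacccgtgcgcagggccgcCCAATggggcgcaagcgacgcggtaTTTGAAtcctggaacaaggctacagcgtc

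In CKS2, CKS1B and CCNB2, TTTGAA began 29, 30 and 29 bases before the start, with the nearest CCAAT box at 52, 54 and 54 bases before it. CENPQ had 1 CCAAT box, 84 bases before the start, and TTTGAA was not found in its window. The TTTGAA of CKS2 lay on the other strand, and those of CKS1B and CCNB2 as written.

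The same motifs were counted in windows of 300 bases, 250 before the start and 50 after it, on either strand, for the 30 members with a window. TTTGAA was held by 20 of the 30 (66.7%), against 18.2% of the 27305 genes with a window. CCAAT was held by 25 (83.3%, against 39.7%), and at 2 or more places by 19 (63.3%, against 12.9%). Both motifs stood in 1 window for 17 members (56.7%, against 7.3%). A gene with several start sites counted if any of its windows held the motif, and 3 of the 30 members had more than 1 window. The median difference was -0.04 for the 20 members with TTTGAA and -0.07 for the 10 in which it was not found. A match is a string of letters and not a measured binding site.

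Among the other genes of the kinase module, CDK1, the catalytic subunit, was at 11.67 and 11.47 without LPS and at 11.49 and 11.37 with it. These groups overlapped, and the difference was -0.14 ± 0.10 (SE). Further probe sets of the gene lay at -0.04 and -0.09, and its dimmest, below the median over genes, at -0.32. CCNA2, cyclin A2, was at 11.33 and 11.17 against 11.13 and 11.17, without overlap but with a difference of -0.0014 between the arrays numbered 2. The cyclin B1 gene CCNB1 differed by -0.09, and its dimmer probe set by -0.15. The cyclin B2 gene CCNB2 differed by 0.03, with 12.24 and 12.25 against 12.32 and 12.24. CDC25C, the phosphatase that activates the kinase, differed by -0.05, and its other probe sets by -0.23 and, below the median over genes, 0.15. Of the 7 genes of this module 6 lay below 0, beside 43.5% of all genes and 49.3% of genes at or above median expression. The median over the module was -0.09. That median was -0.03 without untreated replicate 1 and -0.14 without untreated replicate 2.

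On their brightest probe sets the mitotic kinases stayed within 0.12 of 0. PLK1, polo-like kinase, which acts from centrosome maturation to cytokinesis, was at 9.70 and 10.02 without LPS and at 9.85 and 10.00 with it. Its untreated arrays were farther apart than the group means, which differed by 0.07 ± 0.13 (SE). AURKA, the spindle pole kinase, differed by 0.09, and AURKB, the kinase of the chromosomal passenger complex, by 0.01. The dimmer AURKB probe set lay at 0.17. NEK2, which separates the centrosomes, was at 11.44 and 11.33 against 11.24 and 11.30. Its arrays did not overlap, the difference was -0.12 ± 0.09 (SE; limma, unadjusted p = 0.234), and its other probe set lay at -0.17.

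On the brightest probe sets the checkpoint kinases and the anaphase genes were level too. BUB1 differed by -0.06, TTK, also called MPS1, by -0.03 and BUB1B, which encodes BubR1, by 0.04. The second probe set of BUB1 lay at -0.18, and its dimmer ones, below the median over genes, at -0.02 to 0.04. BUB1B was at 10.51 and 10.52 without LPS and at 10.58 and 10.52 with it, so that its lack of overlap rests on 0.0011 log2 units between LPS replicate 2 and untreated replicate 2. CDC20, the activator of the anaphase-promoting complex, was at 11.52 and 11.63 against 11.61 and 11.73. UBE2C, the ubiquitin-conjugating enzyme of that complex, was at 12.83 and 12.89 against 12.91 and 12.98. The differences were 0.09 ± 0.09 and 0.08 ± 0.07 (SE), and the intervals of both included 0.

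At the inner kinetochore all 5 members lay below 0, and leaving out CENPQ the others were small. CENPK was at 11.07 and 10.94 without LPS and at 10.92 and 10.80 with it. Its arrays did not overlap, and it differed by -0.15 ± 0.10 (SE; limma, unadjusted p = 0.178). CENPA, the histone H3 variant that marks the centromere, differed by -0.02, and its probe set ends in _x_at, so that it can share signal with related transcripts. CENPN, which reads the CENP-A nucleosome, differed by -0.05 and by -0.21 to -0.10 on its other probe sets. CENPM differed by -0.01.

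At the outer kinetochore, the Ndc80 complex binds the microtubule. Its subunit genes NDC80, NUF2 and SPC25 differed by -0.06, -0.14 and -0.15. NUF2 was at 11.47 on untreated replicate 1, 11.16 on untreated replicate 2, 11.22 on LPS replicate 1 and 11.12 on LPS replicate 2, so that 1 array lay above the others. SPC25 had the same form, with 9.16 on untreated replicate 1 and 8.83 to 8.95 on the rest. The kinesin gene CENPE differed by -0.06. CENPF, a large coiled-coil protein of the outer plate, was at 11.53 and 11.50 against 11.59 and 11.57, a difference of 0.07, while its other probe sets lay at -0.16 and -0.14.

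Of the spindle motors, KIF11, the kinesin that pushes the spindle poles apart, was at 10.54 and 10.40 without LPS and at 10.29 and 10.26 with it. The arrays did not overlap, and its difference of -0.19 ± 0.10 (SE) was the third lowest of the members (limma, unadjusted p = 0.0943). The ratio was 0.87 with an interval of 0.74 to 1.03. KIF20A, a kinesin of cytokinesis, differed by -0.03. KIF2C, which takes microtubules apart at the centromere, was at 11.44 and 11.51 against 11.60 and 11.54. Its difference of 0.09 was matched on its other probe set, at 0.09.

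The spindle assembly genes overlapped between the groups in every case. TPX2, which activates Aurora A, differed by 0.05, HMMR by -0.07, DLGAP5 by -0.04 and NUSAP1 by -0.09. On the dimmer HMMR probe set the difference was -0.19. The dimmer NUSAP1 probe set lay at 0.13, with 10.59 and 10.81 on the arrays numbered 1 and 10.03 and 10.06 on those numbered 2. On that probe set the replicate number set the arrays apart more than the treatment did.

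Of the genes for chromosome structure and the passenger complex, MKI67, encoding the Ki-67 antigen, was at 11.52 and 11.49 without LPS and at 11.54 and 11.64 with it. This difference of 0.09 was not shared by its other probe sets, which lay at -0.05, -0.10 and -0.39. On the last of these LPS replicate 1 was at 8.27 and the other arrays at 8.80 to 8.99. TOP2A, topoisomerase II alpha, had the widest range after CKS2 and CENPQ, with 12.45 and 12.19 without LPS and 12.71 and 12.13 with it. Its groups overlapped, and it differed by 0.26 between the arrays numbered 1 and by -0.06 between those numbered 2. Its next probe set was at 12.28 and 12.23 against 12.24 and 12.16. BIRC5, encoding survivin, differed by -0.12 with groups that overlapped.

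**Figure D2:**
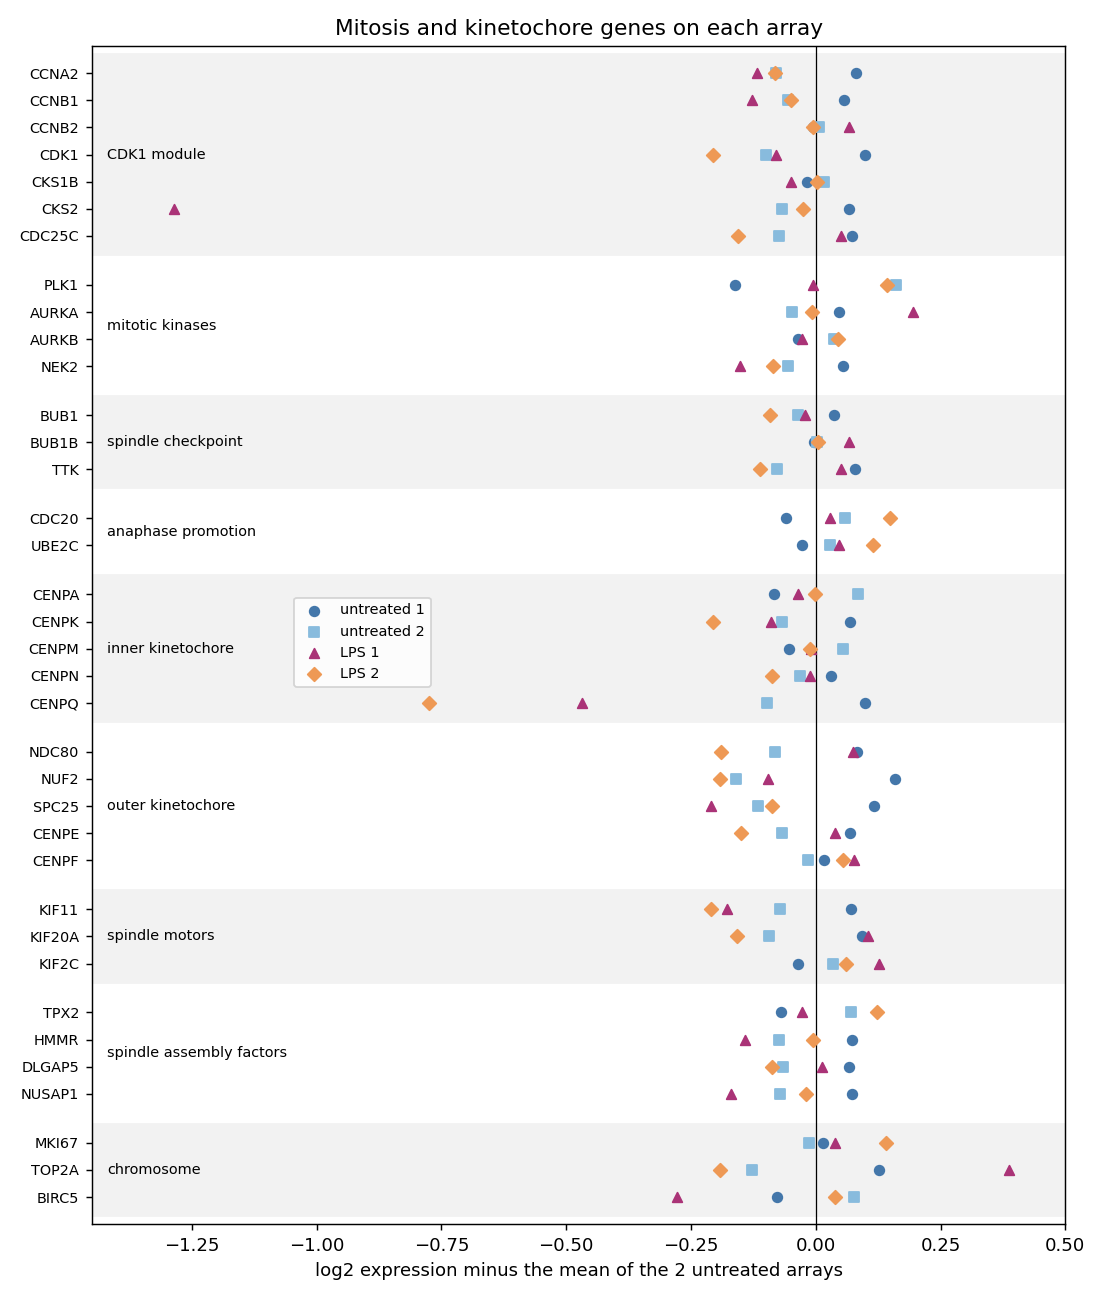
Each of the 36 genes on each array, as log2 expression minus the mean of the 2 untreated arrays, grouped by role; symbols are single arrays. CKS2 on LPS 1 and CENPQ on both LPS arrays lie farthest from 0. Both LPS arrays lie below both untreated arrays for 5 genes, CENPQ among them, and above for another 5. Untreated 1 is the highest array for 19 of the 36 genes.

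**Figure D3:**
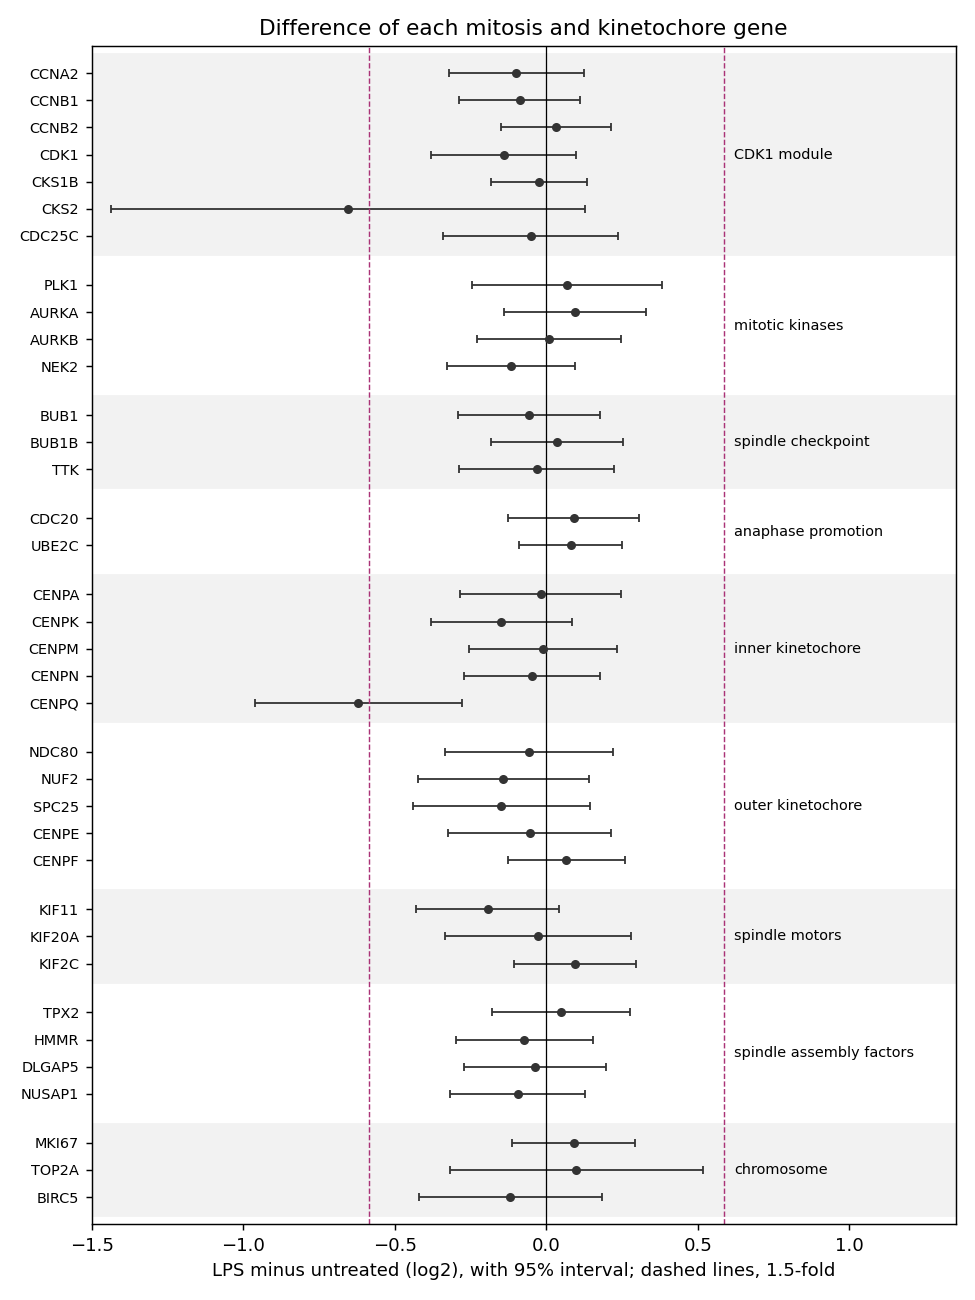
LPS minus untreated on the log2 scale for each gene with its 95% interval (limma, 2 arrays a group), grouped by role; dashed lines mark 1.5-fold. For 34 genes the interval lies inside both dashed lines, and CKS2 and CENPQ reach past the lower one.

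The intervals rest on the spread between these arrays and on the 1 probe set that stood for a gene. Other probe sets of a gene can lie outside them. A dimmer probe set of MKI67 lay at -0.39, where the interval of its brightest was -0.11 to 0.29. For 34 of the 36 members the 95% interval lay within 1.5-fold of no difference in either direction, as it did for 95.5% of all genes. The members whose intervals reached past 1.5-fold were CKS2 and CENPQ. The median interval of a member reached 0.23 to either side on the log2 scale. CKS1B had one of the narrower intervals, -0.18 to 0.14, and that of TOP2A, -0.32 to 0.52, was among the wider ones.

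More members lay below 0 than above, by small amounts. The difference was below 0 for 24 of 36 members (66.7%), against 43.5% of all genes and 49.3% of genes at or above median expression, which is where all members lie. The median over members was -0.04, against 0.02 over all genes and 0.00 over the brighter ones. Untreated replicate 1 was the highest of the 4 arrays for 19 members (52.8%), against 19.6% of all genes and 28% of the brighter ones. Without that array, 20 of 36 members and 9837 of the 19775 genes lay below 0, with medians of -0.02 and 0.00. The median over the brighter genes was then -0.01. Without LPS replicate 2, 21 members lay below 0. The median over members was -0.02, beside -0.01 over all genes and -0.003 over the brighter ones. Without untreated replicate 2 the median over members was -0.10, beside 0.04 over all genes and 0.01 over the brighter ones. Leaving out LPS replicate 1 put 25 members below 0. The median over members was then -0.04, beside 0.05 over all genes and 0.01 over the brighter ones.

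Each LPS array was also set against the untreated array of the same number. Both differences were below 0 for 16 members (44.4%, against 23.7% of all genes) and both above 0 for 9 (25%, against 32.2%). Opposite signs were seen in 11 of 36, against 8601 of 19775 genes. Shares of this kind were not taken over the brighter genes alone, among which all members lie. Sizes could differ between the numbers. BIRC5, SPC25, HMMR, NUSAP1 and CCNB1 differed by -0.33 to -0.18 between the arrays numbered 1. On the arrays numbered 2 the same 5 genes differed by -0.04 to 0.07. The difference between group means exceeded the larger gap between arrays of a group for 7 members (19.4%, against 18.9% of all genes).

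**Figure D4:**
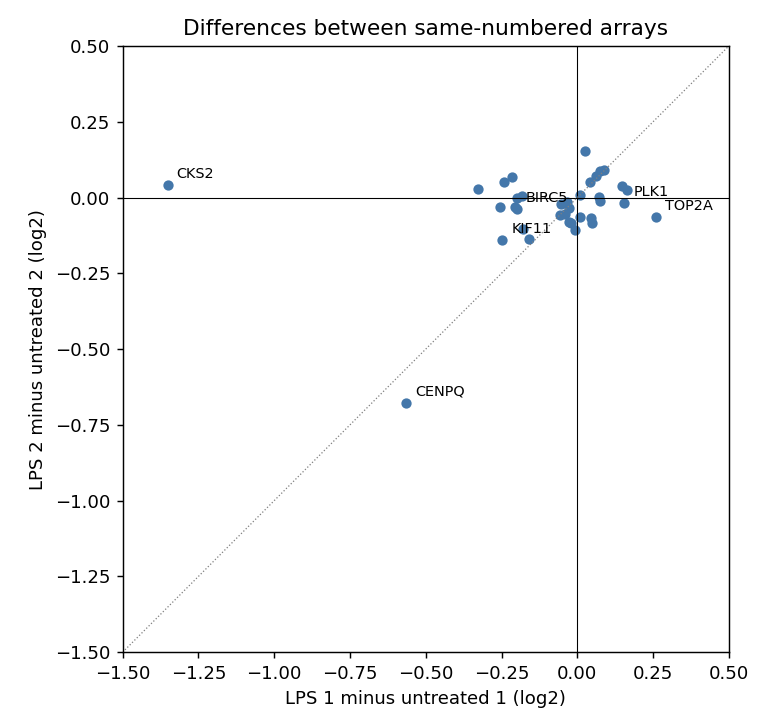
LPS 1 minus untreated 1 (x axis) against LPS 2 minus untreated 2 (y axis), in log2 units, for the 36 genes; the dotted line marks equal differences. CENPQ alone is well below 0 on both axes (-0.57 and -0.68), and CKS2 is far below 0 on the x axis only (-1.35 and 0.04).

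Other probe sets bore on 17 of the 36 members. For 10 of the 17 every further probe set had the sign of the brightest one, and 11 of the 33 further probe sets lay below the median over genes, where signal may be background. CENPQ, CKS2, KIF11, CENPK, CDC20 and UBE2C were among the 19 members with a single probe set. Of the probe sets that stood for members, 12 ended in _s_at and 1 in _x_at, endings that mark probes able to match more than 1 transcript.

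**Figure D5:**
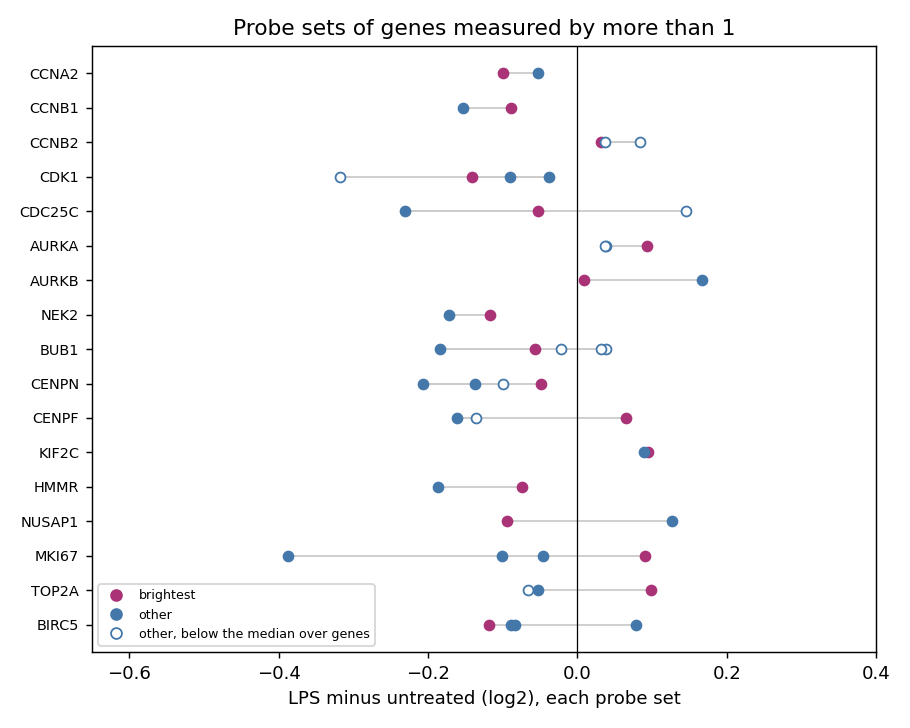
LPS minus untreated (log2) of each probe set for the 17 genes with more than 1; the filled red point is the brightest, filled blue points are other probe sets and open points are those below the median over genes. Probe sets of MKI67, TOP2A, CENPF, NUSAP1, CDC25C, BUB1 and BIRC5 lie on both sides of 0.

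The wider mitotic apparatus was read from 7 further lists with 108 genes, of which 103 were measured. Of these 103, 0 passed the adjusted test (limma). At an unadjusted p under 0.05 (limma), 2 were lower and 1 was higher, beside 1.57% and 1.26% of all genes. Below 0 lay 67 (65%), against 43.5% of all genes and 49.3% of genes at or above median expression. The median of the 103 was -0.07, or -0.04 without untreated replicate 1, the array on which 50 of them were highest. Both LPS arrays were below both untreated arrays for 26 (25.2%) and above for 9 (8.7%), beside the shares of 11.7% and 17.9% over all genes given above. Among genes at or above median expression, where all but 2 of the 103 lay, those shares were 14.5% and 15.4%. The condensin and cohesin list had 11 of 13 members below 0, the other outer kinetochore genes 10 of 14 and the other inner kinetochore genes 9 of 13. Counts were 6 of 8 in the further checkpoint and passenger genes, 11 of 19 in the further spindle and cytokinesis genes, 13 of 21 in the genes of mitotic entry control and 7 of 15 in the anaphase-promoting complex list.

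The genes with the smallest p in each direction over those lists were WEE1, FBXO5 and BUB3, which were lower, and CDC25B, NCAPD2 and KIFC1, which were higher. WEE1, the kinase that restrains CDK1, was at 11.43 and 11.27 without LPS and at 11.08 and 11.09 with it, a difference of -0.27 ± 0.10 (SE; limma, unadjusted p = 0.0241, adjusted p = 1). Its other probe set differed by -0.01. FBXO5, which encodes the inhibitor EMI1 of the anaphase-promoting complex, differed by -0.25 ± 0.10 (SE) and by -0.06 on its other probe set. BUB3, a checkpoint partner of BUB1, differed by -0.19 ± 0.09, and its other 5 probe sets by -0.12 to 0.14. Both ends of that range were probe sets below the median over genes. CDC25B, a phosphatase that starts the activation of CDK1, differed by 0.29 ± 0.13, KIFC1, a minus-end kinesin, by 0.22 ± 0.12 and the condensin gene NCAPD2 by 0.22 ± 0.11. Neither FBXO5 nor CDC25B passed the adjusted test (limma, unadjusted p = 0.044 and 0.0494, adjusted p = 1), and KIFC1, NCAPD2 and BUB3 had an unadjusted p above 0.05.

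Genes of the step before, entry into S phase and DNA replication, had 14 of 29 measured members below 0 with a median of 0.00, and 20 of 29 without untreated replicate 1. Of the cell cycle inhibitor genes 7 of 13 lay below 0 with a median of -0.03. CDKN1A, encoding p21, was chosen here after its values were seen. It was at 11.73 and 11.87 without LPS and at 11.98 and 11.92 with it. The difference was 0.15 ± 0.09 (SE), without overlap of the arrays. Both LPS arrays lay above both untreated arrays for 15.4% of the inhibitor genes, against 17.9% of all genes. CDKN1B, chosen in the same way, differed by -0.12 ± 0.09 (SE), and its groups overlapped. Whether these lists differ from the mitotic genes was not tested.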

How the data were processed

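Total RNA of AGS cells (2 untreated samples, 2 with LPS) was hybridised to single-channel Affymetrix arrays. The deposited table holds log2 expression values for 54675 probe sets. Per the submitters' processing notes MAS5 and RMA were used, and their roles, versions and settings are not given in the sources used here. Array medians lay between 6.31 and 6.36. Of the probe sets, 41097 had 1 gene symbol, 1801 several and 11777 none. Control probe sets were left out, as was 1 probe set shared by CENPA and another gene. The values entered limma 3.58.1 in R 4.3.3 (lmFit, then eBayes with trend, 2-sided, both groups in 1 fit) for all 19775 genes, with Benjamini-Hochberg adjustment and a threshold of 0.05. The fit was tested on simulated data in which all arrays varied independently. That test does not cover variation shared by same-numbered arrays or dips on 1 array. With 2 arrays a group, p-values measure only the spread between these arrays, and it was not stated whether arrays of a number share an experiment.

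The members and lists were chosen with earlier results of these data known. All 36 members are described. From the further mitotic lists, up to 3 genes in each direction were named by smallest p. Any other gene, markers aside, is marked in the text as picked with its values in view. Each of 10 alternatives changed 1 choice: quantile scaling, leaving out genes under the median level, averaging a gene's probe sets, dropping probe sets that end in _x_at or _s_at, eBayes without trend, the replicate number as a block, and leaving out each array. Promoter windows came from RefSeq. Figures were drawn with matplotlib 3.10.9.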

Additional observations from a re-analysis of the deposited data

How the results depend on the processing

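With 2 arrays a group, the 95% interval of a member reached a median of 0.23 log2 units to either side. Over the alternatives that measured a gene (10, or 9 where all its probe sets end in _x_at or _s_at) the sign held for 16 members (12 below 0, 4 above), CENPQ and CKS2 among them, and turned at least once for 20. With quantile normalization CENPM was at 0.0019. With the mean of a gene's probe sets CENPF was at -0.0769, NUSAP1 at 0.016, MKI67 at -0.1109 and TOP2A at -0.0069. Without _x_at and _s_at probe sets, which left 30 members, CDC25C was at 0.1461, CENPF at -0.1354 and TOP2A at -0.0532. In that setting the probe sets of CDC25C and CENPF lay below the median over genes, where signal may be background. The cause was not tested, except that these settings, quantile normalization aside, read other probe sets. CENPM had 1 probe set. With the replicate block, 2 members (CENPQ and KIF11) were lower at an unadjusted p under 0.05 in limma (4.11% of all genes), 0 higher, and of all genes 1487 had such a p and 0 passed adjustment. Across genes, the deviations of same-numbered arrays from their group means correlated at r = 0.44, a hint from the data and not from the labels. Leaving out 1 array gave 0 to 2 genes higher and 0 to 14 lower past the adjusted threshold, the highest counts without LPS replicate 2. Members at an unadjusted p under 0.05 numbered 0 to 1 higher and 1 to 2 lower, while 0.399% to 3.79% of all genes were lower and 147 to 1585 genes in all had such a p. They were NUF2 beside CENPQ without untreated replicate 2, and CKS2 and TOP2A beside CENPQ without LPS replicate 2. The median over members ran from -0.0978 to -0.0164. Members whose sign turned when an array was left out ranged as follows: CCNB2 -0.0042 to 0.0675, CKS1B -0.0496 to 0.0018, CDC25C -0.1563 to 0.0511, PLK1 -0.0921 to 0.2302, AURKA -0.0079 to 0.1948, AURKB -0.0276 to 0.0452, TTK -0.1129 to 0.0498 and CENPA -0.1025 to 0.0651. Further, CENPM ranged from -0.0654 to 0.0437, NDC80 from -0.1904 to 0.0736, NUF2 from -0.3026 to 0.0162, CENPE from -0.1502 to 0.039, KIF20A from -0.1579 to 0.1036, TPX2 from -0.028 to 0.1226, DLGAP5 from -0.1037 to 0.0287, TOP2A from -0.1911 to 0.3876 and BIRC5 from -0.2768 to 0.0395.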
